A study of Arabidopsis thaliana with 9 samples.

Results

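The cytochrome P450 family was followed in whole rosettes of Arabidopsis thaliana through 22 probe sets, out of 22746 on the array that were not the array maker's controls. They were chosen by a naming rule, set with earlier results of these data known. The platform annotation had to give the probe set to 1 single gene, of 13513 probe sets with 1 gene. The gene's symbol had to read CYP, digits, letters, digits. The 22 probe sets stand for 22 genes in 5 subfamilies, with 18 in CYP71B and 1 each in CYP51G, CYP78A, CYP79A and CYP84A. A comparison of CYP71B with the others thus sets 18 genes against 4. All 22 matched a RefSeq gene table, in which 225 genes carry a symbol of this form, 35 of them in CYP71B. The 22 are therefore 9.78% of the family as named there, and many well-known P450 genes are not among them.

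Rosettes were harvested 15 days after sowing on agar plates of MS medium, from the inbred accessions Col-0 (Col here) and C24 and from their F1 hybrid, labelled C24 x Col, which carries 1 genome of each parent. Each of the 3 groups had 3 biological replicates, 9 arrays in all. The plants carried no transgene or treatment that the labels name, and the labels do not say how many plants went into a sample. RNA from a whole rosette mixes cell types, so fewer cells of a type and less RNA per cell cannot be told apart.

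P450s are heme-containing monooxygenases. Most of those in plants sit in the membrane of the endoplasmic reticulum and take their electrons from NADPH through a P450 reductase. They insert oxygen into small molecules and so shape hormones, sterols, lignin, pigments, cuticle and defence compounds; in the name the first number gives the family, the letter the subfamily and the last number the gene. CYP71B is a large subfamily of Arabidopsis whose genes often lie in tandem, and its best known gene, PAD3 (CYP71B15), which is no member here, makes the defence compound camalexin.

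Levels are MAS5 signals, linear values with 1 per probe set and array. Their mean, with 2% of the values cut from each end, ran from 500.049 to 500.054 over the 9 arrays. By that mean the arrays share 1 scale, while the array medians ran from 159.1 to 174.8. Probe sets were tested where the mean log2 signal over the 9 arrays was at or above the 40th percentile, which corresponds to a signal of 89.9; 13648 probe sets passed. Among the P450s 11 passed, 10 of 18 in CYP71B and CYP78A9 alone of the other 4. The tested member nearest this limit was CYP71B29, with a geometric mean signal of 136.6, and the nearest below it was CYP84A4, at 76.9. Differences are log2 differences from limma, fitted to all 9 arrays, with the standard error (SE) and an adjusted p after Benjamini-Hochberg over the 13648 probe sets; a difference was called at an adjusted p under 0.05. Group levels are the mean ± SD over n = 3 arrays.

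Of the green leaf markers on a list of 14, the annotation named 8, and their signals lay between 1247 and 41461 on every array; 5 of the 8 were called lower and 1 higher in C24 than in Col. The 1 root marker named, PYK10, gave a signal of 2726 ± 219 in Col and of 92.0 ± 40.5 in C24, with 1985 ± 143 for F1. With this 1 gene, and a log2 difference of -4.98 between C24 and Col, the presence of root tissue cannot be judged. The part of these markers in the results was not tested. Among probe sets given to 1 single gene, the annotation named 0 of the 7 seed and 0 of the 8 flower markers. SEP1 and SEP2 of the flower list did not match exactly 1 RefSeq gene and were not looked up.

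**Figure D1:**
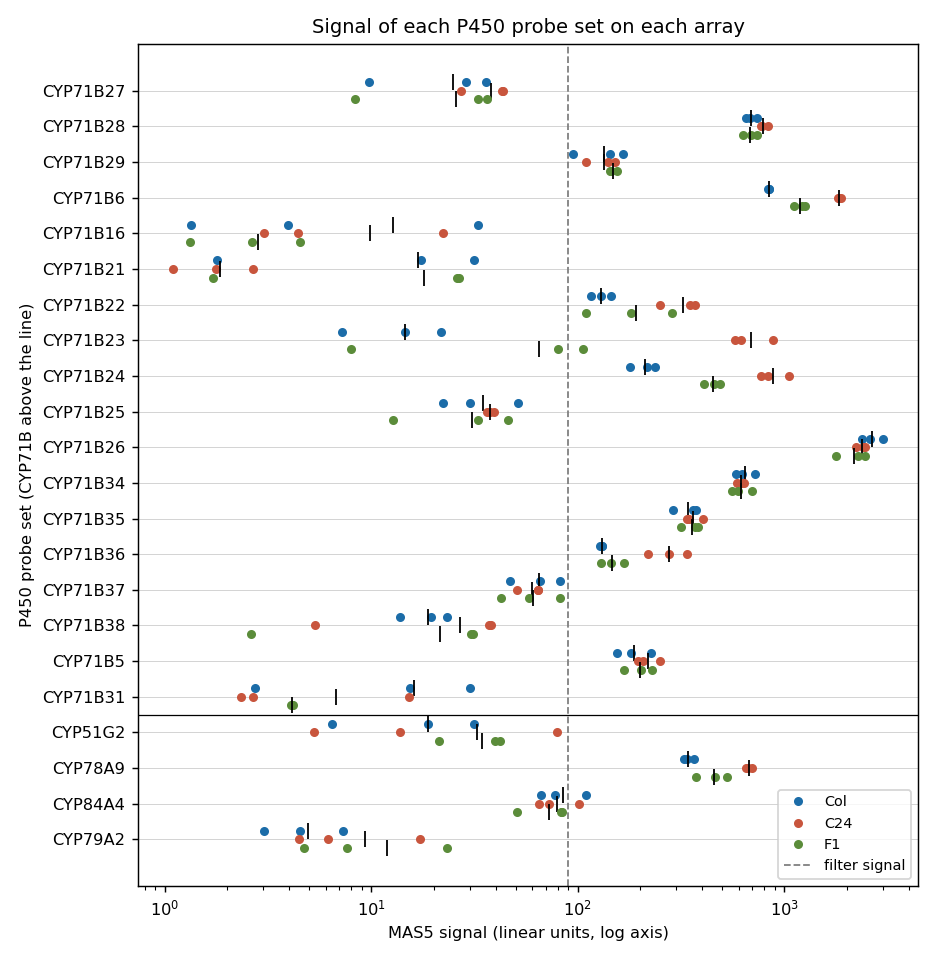
Signal of each of the 22 P450 probe sets on each of the 9 arrays, in MAS5 units on a log axis, with the CYP71B subfamily above the horizontal line in chromosomal order and the other 4 genes below it. Points are arrays, black ticks the mean of each group and the dashed line the filter signal of 89.9. CYP71B6, CYP71B22, CYP71B23, CYP71B24, CYP71B36, CYP71B28 and CYP78A9 have all 3 C24 arrays to the right of all 3 Col arrays.

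The comparison of the parents asked which P450 transcripts differed between C24 and Col. Higher levels in C24 were called for 5 of the 11 tested members, CYP71B24, CYP71B22, CYP71B6, CYP71B36 and CYP78A9, and lower levels for 0. Over all 13648 probe sets 30.9% were called, 15.7% higher and 15.2% lower in C24. Called and at least 2-fold higher were 4 of the 11 tested members (36.4%), against 4.17% of all probe sets tested. The other 6 tested members, all of CYP71B, had log2 differences between -0.16 and 0.23.

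CYP71B24 (AT3G26230) showed the largest difference among the tested members. Its signal was 216, 180 and 236 on the Col arrays, 834, 767 and 1053 on the C24 arrays, and 408, 487 and 458 on the F1 arrays. The 3 groups did not overlap, with F1 between the parents. C24 exceeded Col by 2.07 on the log2 scale (SE 0.15, adjusted p = 5.55e-08 in limma), a difference higher than that of 98.7% of the probe sets tested.

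CYP71B6 (AT2G24180), an enzyme of indole metabolism that turns indole-3-acetonitrile towards indole-3-carboxylic acid derivatives, followed the same order. The Col arrays read 846, 845 and 835, the C24 arrays 1872, 1831 and 1816, and the F1 arrays 1213, 1263 and 1111. Again the 3 groups were apart and F1 lay in the middle. The log2 difference of C24 from Col was 1.13 (SE 0.09, adjusted p = 2.30e-07 in limma).

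CYP71B22 (AT3G26200) read 115, 144 and 130 in Col, 251, 347 and 370 in C24, and 110, 180 and 286 in F1. The parents were apart, while the F1 arrays ran from below the lowest Col array into the C24 range. C24 exceeded Col by 1.30 (SE 0.28, adjusted p = 0.00219 in limma).

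CYP71B36 (AT3G26320) read 129, 131 and 131 in Col, 337, 218 and 275 in C24, and 167, 129 and 145 in F1. All C24 arrays were above all others, and the F1 arrays overlapped those of Col. The log2 difference between the parents was 1.06 (SE 0.20, adjusted p = 0.00073 in limma).

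CYP78A9 (AT3G61880), known for promoting the growth of fruits and seeds when its activity is raised, was the tested gene outside CYP71B. Its signal was 326, 365 and 336 in Col, 699.996, 669 and 652 in C24, and 525, 462 and 374 in F1. The 3 groups did not overlap, although the lowest F1 array lay close to the highest Col array. C24 exceeded Col by 0.98 (SE 0.13, adjusted p = 4.85e-05 in limma).

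CYP71B23 (AT3G26210) fell under the filter although its C24 signals were well above it. Its Col signals were 7.23, 14.6 and 21.7. The C24 arrays read 618, 574 and 877 and the F1 arrays 79.8, 106 and 8.01. All C24 arrays were above all others, and the C24 mean of 689.8 was 7.67 times the filter signal. The Col signals lie too low for a level, and so for a fold, to be read from them. With no filter, where 18% of 22746 probe sets were called, C24 was called higher, with a fitted log2 difference of 5.68 (SE 0.76, adjusted p = 8.79e-05 in limma) whose size depends on those Col signals.

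The other 6 tested members showed no called difference between the parents, and their 95% intervals together ran from -0.499 to 0.647 on the log2 scale. CYP71B28 (AT1G13090) read 681, 654 and 740 in Col and 766, 832 and 776 in C24, which did not overlap, yet its difference of 0.19 (SE 0.11, adjusted p = 0.198 in limma) missed the threshold. CYP71B26 (AT3G26290) read 3001, 2590 and 2368 in Col and 2469, 2415 and 2218 in C24, a difference of -0.16. CYP71B34 (AT3G26300), CYP71B35 (AT3G26310), CYP71B29 (AT1G13100) and CYP71B5 (AT3G53280) differed by -0.06, 0.09, 0.01 and 0.23, and in each the arrays of the parents overlapped. Counted over the tested members, the parents did not overlap in 6 of 11, all of them higher in C24, where 45% of all probe sets did not overlap, 23.7% with C24 higher.

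**Figure D2:**
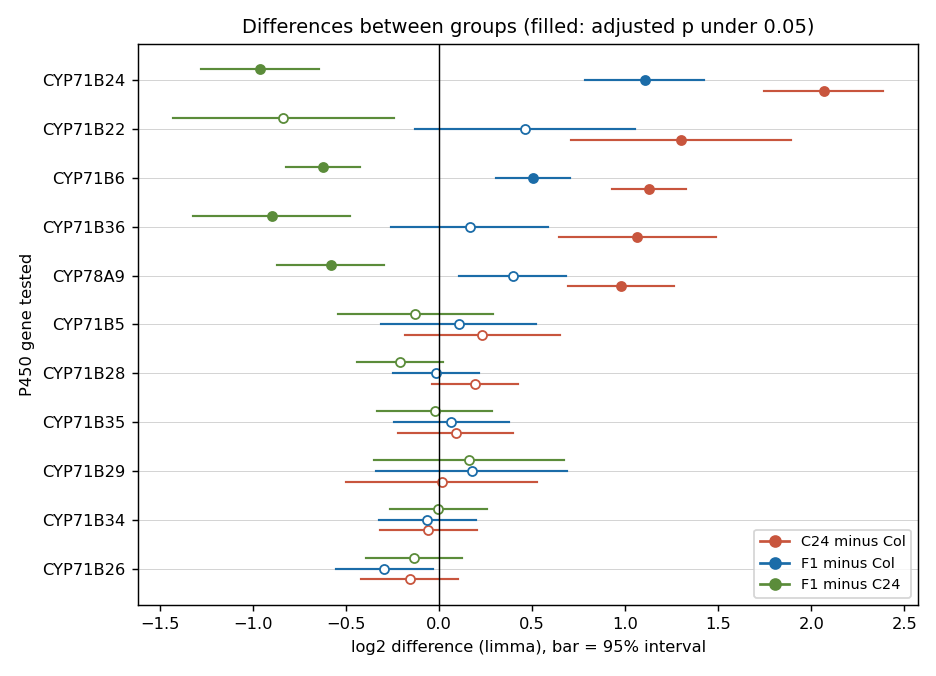
Log2 differences between groups for the 11 P450 genes tested, from limma, with 95% intervals. Filled points have an adjusted p under 0.05; CYP71B24, CYP71B22, CYP71B6, CYP71B36 and CYP78A9 lie to the right of 0 for C24 minus Col, while the other 6 genes lie between -0.16 and 0.23.

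The median log2 difference of C24 from Col was 0.21 over the 10 tested CYP71B members and 0.23 over all 11 tested P450s. Over all probe sets tested it was 0.03. The CYP71B median was 0.13 after median centring and 0.14 with a 60th-percentile filter. For those fits the median over all probe sets was not taken, so the 0.03 is no comparator for them. In CYP71B 4 of 10 were called, 40% against the 30.9% of all probe sets, and outside it the 1 tested gene was called. With a single tested gene on the other side, CYP71B could not be set apart from the other subfamilies. Its 10 tested members ranged from -0.16 to 2.07, and related genes are not independent replicates.

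Most CYP71B members lie close together in the genome. On chromosome 3 the RefSeq table (assembly TAIR10.1, used here for gene order) places 24 coding or pseudogene loci from CYP71B16 to CYP71B37, of which 18 are P450s and 6 are not; 11 of the 18 are members, 6 of them tested. CYP71B22 and CYP71B23 are direct neighbours, and CYP71B24 follows after CYP71B3, which has no member probe set. The mean signal in C24 was 4.198 times that in Col for CYP71B24 and 2.49 times for CYP71B22; for CYP71B23, with Col signals under the filter, no ratio is given. On the far side of the 6 other loci, CYP71B26, CYP71B34 and CYP71B35 differed by no more than 0.16 in size and were not called. CYP71B36, next to CYP71B35 on one side and CYP71B37 on the other, was higher in C24, whereas CYP71B37 read 64.7 ± 17.5 in Col and 59.8 ± 7.88 in C24 and stood below the filter. The run thus held 3 called genes among its 6 tested members, where 15.7% of all probe sets were called higher in C24. Between CYP71B24 and CYP71B36 lay 3 tested members that were not called. CYP71B6, on chromosome 2, and CYP78A9, elsewhere on chromosome 3, lie outside it. All 22 probe sets carry the plain suffix _at, but the CYP71B genes are related in sequence. How far a probe set binds transcripts of a neighbouring gene was not tested. Whether C24 sequence differs from the probes, and so alters C24 or F1 signals, was not tested either.

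**Figure D3:**
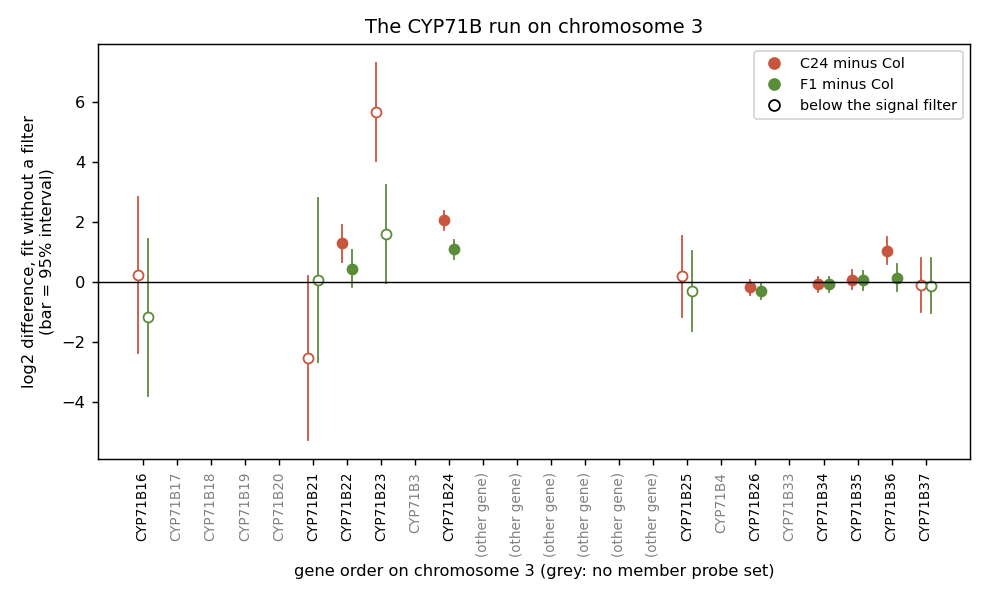
Log2 differences of C24 and of F1 from Col, from limma without a signal filter and with 95% intervals, for the 11 members of the chromosome 3 run in gene order. Open points mark members under the signal filter and grey names loci without a member probe set; CYP71B23 stands highest at 5.68, a size that rests on low Col signals, between CYP71B22 and CYP71B24, and CYP71B36 stands above its neighbours at 1.06.

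The remaining members gave low signals. Apart from CYP71B23, the 10 members under the filter had signals from 1.1 to 109.1, with a median of 24.7, and in 0 of the 10 were the arrays of any pair of groups apart. They include CYP79A2 (AT5G05260), which makes the phenylalanine-derived aldoxime of benzylglucosinolate, with 4.93 ± 2.16 in Col, 9.28 ± 6.94 in C24 and 11.9 ± 9.998 in F1. CYP84A4 (AT5G04330), of arabidopyrone synthesis, read 84.3 ± 22.3, 79.6 ± 19.5 and 72.4 ± 19.0 in the same order. CYP51G2 (AT2G17330), of the sterol demethylase family, read 18.9 ± 12.5, 32.6 ± 40.3 and 34.3 ± 11.3; it and CYP71B27 are the 2 members that RefSeq lists as transcribed pseudogenes. In CYP71B these were CYP71B16, CYP71B21, CYP71B25, CYP71B27, CYP71B31, CYP71B37 and CYP71B38. CYP71B21 (AT3G26190) was low on all C24 arrays (2.68, 1.76 and 1.10) and higher on 2 of 3 Col arrays (17.3, 1.80 and 31.5) and 2 of 3 F1 arrays (26.0, 26.5 and 1.71); the groups overlapped, and such signals lie too low for a level to be read from them.

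F1 against Col asked how far the hybrid moved from that parent. F1 was higher in 2 of the 11 tested members, CYP71B24 and CYP71B6, and lower in 0, beside 11.5% of all probe sets called, 6.37% in the direction of a higher F1 level. CYP71B24 was 1.10 higher on the log2 scale (SE 0.15, adjusted p = 0.000169 in limma), a 2.14-fold higher mean signal, and CYP71B6 0.50 higher (SE 0.09, adjusted p = 0.00208 in limma). CYP78A9 had all 3 F1 arrays above the Col arrays but a difference of 0.39 (SE 0.13, adjusted p = 0.0733 in limma); without F1 replicate 3, its lowest F1 array, it was 0.53 (adjusted p = 0.0219). CYP71B22 differed by 0.46 (SE 0.28, adjusted p = 0.322), by 0.81 (adjusted p = 0.0466) without F1 replicate 1 and by 0.12 (adjusted p = 0.818) without F1 replicate 3. CYP71B36 differed by 0.17 (SE 0.20, adjusted p = 0.654). The F1 arrays were apart from Col in 3 of 11, all higher, where 29% of all probe sets were apart, 14.4% with F1 higher.

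The comparison of F1 with C24 asked how far the hybrid stayed below or above the other parent. F1 was lower in 4 of the 11, CYP71B24, CYP71B36, CYP71B6 and CYP78A9, and higher in 0, beside 14.3% of all probe sets called, 6.75% in the direction of a lower F1 level. The log2 differences were -0.96 for CYP71B24 (SE 0.15, adjusted p = 0.00043), -0.90 for CYP71B36 (SE 0.20, adjusted p = 0.00596), -0.62 for CYP71B6 (SE 0.09, adjusted p = 0.00028) and -0.58 for CYP78A9 (SE 0.13, adjusted p = 0.00811), all in limma. CYP71B22 stood at -0.84 (SE 0.28, adjusted p = 0.0572), and without F1 replicate 3 or C24 replicate 1 it passed (-1.18 with adjusted p = 0.00794, and -1.01 with adjusted p = 0.0493), while without F1 replicate 1 it was -0.49 (adjusted p = 0.215). CYP71B23, with no filter, was called lower in F1, at -4.06 (SE 0.76, adjusted p = 0.00373), where 7.51% of all probe sets were called. It differed from Col by 1.63 (SE 0.76, adjusted p = 0.273), where 5.74% were. Without F1 replicate 3, its lowest F1 array, CYP71B23 passed the filter and stood at -2.88 from C24 (adjusted p = 0.000498 in limma). From Col it then differed by 2.80 (adjusted p = 0.00075 in limma), with Col signals too low for a fold to be read. It passed the filter there through its C24 arrays, so neither value is taken as support for a difference. The F1 arrays were apart from C24 in 5 of 11 tested members, all lower and CYP71B28 among them, where 32.9% of all probe sets were apart, 17.2% with F1 lower. Both F1 comparisons and that of the parents share arrays, so their counts are not independent.

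The position of F1 between its parents was read from linear signals on a scale that runs from 0 at the Col mean to 1 at the C24 mean. It was 0.357 for CYP71B24, 0.354 for CYP71B6, 0.337 for CYP78A9, 0.323 for CYP71B22 and 0.113 for CYP71B36, all 5 on the Col side of 0.5 on this linear scale. On the log2 scale CYP71B24 lay on the C24 side, 0.071 above the mean of the parents' logs, and the other 4 on the Col side, from -0.060 for CYP71B6 to -0.37 for CYP71B36. Over the 569 probe sets that were at least 2-fold higher in C24 and called, the median was 0.347, with quartiles of 0.213 and 0.539, and 71.4% lay below 0.5. The positions of CYP71B24, CYP71B6, CYP78A9 and CYP71B22 fall within those quartiles, and that of CYP71B36 below them. CYP78A9, with a log2 difference of 0.98 between the parents, was under 2-fold and is not among the 569. CYP71B22 was the least settled, its 3 F1 arrays lying at -0.105, 0.263 and 0.81. CYP71B23 stood at 0.0742, its F1 arrays at 0.0967, 0.136 and -0.00962.

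**Figure D4:**
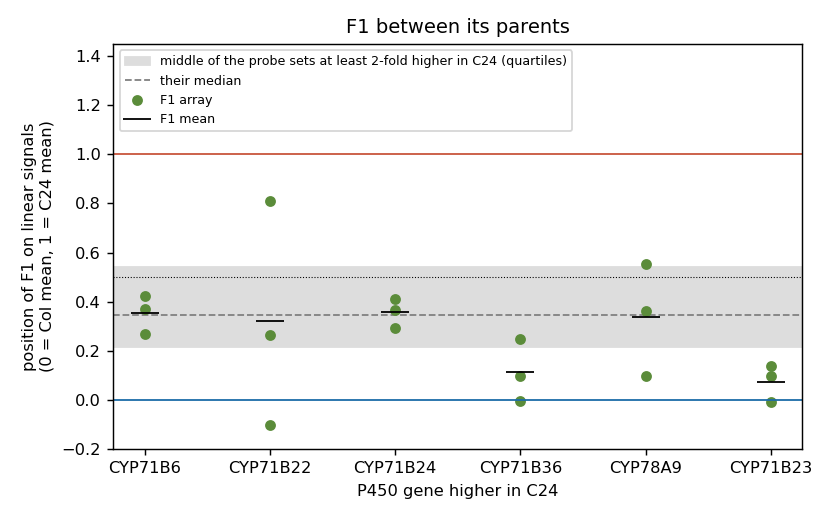
Position of F1 between Col (0) and C24 (1) on linear signals for the 5 tested P450s called higher in C24 and for CYP71B23, which was under the filter. Points are the 3 F1 arrays, short bars the F1 mean, and the grey band the quartiles (0.213 to 0.539) of the 569 probe sets at least 2-fold higher in C24. Neither CYP78A9 nor CYP71B23 is among these. The means of CYP71B36 and CYP71B23 lie below the band.

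F1 against the mid-parent, the average of the linear parental levels, asked whether any P450 left the additive level. In limma 0 of 11 tested members were called, beside 3.3% of all probe sets, and 1 of 11 had an unadjusted p under 0.05, against 16.3% of all probe sets. That 1 was CYP71B36, with -0.46 (SE 0.17, adjusted p = 0.193). CYP71B24 stood at -0.27 (SE 0.14, adjusted p = 0.347), CYP71B6 at -0.17 (SE 0.08, adjusted p = 0.328), CYP71B22 at -0.33 (SE 0.25, adjusted p = 0.555) and CYP78A9 at -0.18 (SE 0.12, adjusted p = 0.499). Against the mean of the parents' logs CYP71B24 turned to 0.071 and CYP71B6 moved to -0.060, CYP71B22 to -0.19 and CYP78A9 to -0.094. The median over CYP71B was -0.14, beside -0.03 over all probe sets tested. The CYP71B median was -0.068 without F1 replicate 2 and -0.24 with no filter. For those fits the median over all probe sets was not taken. The 95% intervals of the 11 tested members together ran from -0.856 to 0.611.

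CYP71B23 stood at -3.08 from the mid-parent in the fit without a filter (SE 0.76, adjusted p = 0.0609), where 1.67% of all probe sets were called. Of its groups C24 alone had all arrays above the filter signal; it passed the filter with 16 added to each signal, without Col replicate 1 or without F1 replicate 3, its lowest F1 array, and was called below the mid-parent in each of these 3; with F1 and Col signals this low, those calls are not taken as support for a departure. Beyond both parents 0 of the 11 tested members were called in limma, and 0 had an unadjusted p under 0.05, beside 0.506% and 3.63% of all probe sets.

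Few other genes of the pathways in which P450s act were named by the annotation. Among 30 glucosinolate genes other than P450s 4 were named and 3 tested. BCAT4, of methionine chain elongation, was higher in C24 (15829 ± 1572 against 9916 ± 1752, log2 difference 0.68) and in F1 (0.38, adjusted p = 0.0405 in limma) than in Col; UGT74B1 and GSTU20 differed from Col by -0.27 and 0.12 in C24 without passing. HCT, a lignin gene and the 1 tested of 15 phenylpropanoid genes, was called lower than in Col, at -0.60 in C24 and -0.48 in F1. OPCL1, of jasmonate synthesis and the 1 tested of 22, was called higher, by 0.999 in C24 and 0.66 in F1. LYC, the 1 tested of 13 names on the carotenoid list, where PDS and PDS3 name the same gene, was not called (-0.24 in C24). UGT71B6, the 1 named of 11 abscisic acid genes, was under the filter. The annotation named 0 of 8 electron donors of P450s, 0 of 7 camalexin partners and 0 of 13 brassinosteroid genes. It also named 0 of 11 gibberellin and 0 of 18 cutin and suberin genes. These counts rest on probe sets given to 1 single gene. Listed names that did not match exactly 1 RefSeq gene, GGT1 and TSA1 of the camalexin list among them, were not looked up.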

How the data were processed

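Whole-rosette RNA of Col, C24 and F1 (3 biological replicates each, per the labels) was hybridised to 9 one-colour Affymetrix arrays. The intensity values the authors deposited are linear MAS5 signals, going by the submitters' processing notes. The MAS5 version and settings were not given in the sources used here. With arrays the precision is set by their number, and an exact test of 3 against 3 could not go below p = 0.1. From 22810 probe sets the 64 controls were removed. The annotation named 1 gene for 13513 of the rest, several for 503 and none for 8730. A further 6 probe sets with a symbol that holds CYP and digits did not meet the naming rule. Signals were log2-transformed and fitted with limma 3.58.1 in R 4.3.3 (1 mean per group, intensity trend). The mid-parent was log2 of the mean of the parents' fitted levels taken back to the linear scale, with an SE by the delta method. The scripts were tested on simulated data. Members, lists and alternatives were chosen with earlier results of these data known. Named were all CYP71B members, all called members and any listed P450 of known role; the members outside CYP71B under the filter were added after their values were seen. No coordinates are given, since no build is named for the probes.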

Additional observations from a re-analysis of the deposited data

How the results depend on the processing

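The 11 called differences of single members kept their direction and their call in every alternative in which the member was tested. With the 60th-percentile filter, which tested 7 members, C24 against Col gave 3 called members. The other alternatives gave 5 or 6, with CYP71B23 the member added where the count was 6. F1 against Col gave 2 to 4 when single arrays were left out, with 4 (CYP78A9 and CYP71B23 added) without F1 replicate 3. Where CYP71B23 passed the filter it did so through C24, its only group with all arrays above the filter signal. Its calls in these counts, that of C24 against Col included, are therefore not taken as support for a difference. F1 against C24 gave 4 to 6 without single arrays and 3 with the 60th-percentile filter. F1 against the mid-parent gave 1, CYP71B23, with 16 added to the signals, and 0 to 1 when single arrays were left out. The median of C24 minus Col over CYP71B was 0.14 with the 60th-percentile filter, 0.13 after median centring and 0.17 to 0.31 without single arrays. That of F1 minus mid-parent was -0.24 with no filter, -0.13 after median centring, -0.17 with 16 added and -0.17 to -0.068 without single arrays. The causes were not tested. Deviations from the group means correlated from -0.0015 to 0.12 between same-numbered arrays, with 4 of the 9 pairs above 0.1. Between arrays of other groups with other numbers they correlated from -0.11 to 0.018. Col replicate 2 gave -0.0015 with C24 replicate 2 and 0.015 with F1 replicate 2. All other same-numbered pairs lay at 0.089 or above, over the highest pair with other numbers. Whether the replicate numbers pair the arrays is thus not settled, and the main fit takes no pairing. With the replicate block the called members numbered 5 in C24 against Col, 2 in F1 against Col, 5 in F1 against C24 (CYP71B22 added, adjusted p = 0.0163) and 0 against the mid-parent.

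Direction changes were limited to 37 single-gene values, 0 of them past the threshold. CYP71B29 differed between the parents by -0.077 after quantile normalization and -0.068 after median centring. In F1 minus C24, CYP71B34 was 0.041 under both and CYP71B35 0.024 and 0.023. CYP71B24 stood at 0.071 in F1 minus mid-parent with the mean of the parents' logs. When single arrays were left out, C24 minus Col ran from -0.22 to 0.18 for CYP71B29, from -0.13 to 0.028 for CYP71B34 and from -0.024 to 0.16 for CYP71B35. F1 minus Col ran from -0.066 to 0.044 for CYP71B28, from -0.059 to 0.34 for CYP71B29, from -0.15 to 0.024 for CYP71B34, from -0.047 to 0.15 for CYP71B35 and from -0.024 to 0.25 for CYP71B5. F1 minus C24 ran from -0.23 to 0.0017 for CYP71B26, from -0.092 to 0.064 for CYP71B34 and from -0.073 to 0.058 for CYP71B35. F1 minus mid-parent ran from -0.67 to 0.022 for CYP71B22, from -0.12 to 0.034 for CYP71B34, from -0.035 to 0.10 for CYP71B35 and from -0.12 to 0.11 for CYP71B5.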
